A study of Mus musculus with 3 samples.

Results

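The AP-1 subunits and early response factors are 10 genes for transcription factors. Most of them are switched on within minutes to hours of a growth or stress signal. The genes are the Fos family (Fos, Fosb, Fosl1 and Fosl2), the Jun family (Jun, Junb and Jund), Atf3, Egr1 and Myc. They were taken as every probe set on the array whose platform annotation gives exactly 1 gene symbol and whose symbol is one of these names. This gave 14 probe sets for the 10 genes, out of 34945 probe sets for 18193 genes. Of these, 12 probe sets for 9 genes passed the filter on dim probe sets and could be tested. The probe set of Fosb and a second probe set of Jund did not pass it. Among the 10 genes, Egr1 was the only one at least 2-fold from WT on both RASSF9-/- arrays: its signal was 2.83-fold and 3.39-fold lower on the RASSF9-/- arrays than on the WT array. Fos, Jun and Fosl2 also had lower signals on both RASSF9-/- arrays, by less, and Junb, Jund, Myc, Fosl1 and Atf3 had higher ones. Fosl1 and Atf3 were each close to WT on 1 of the RASSF9-/- arrays. A second, dimmer probe set of Fosl1 had WT between the RASSF9-/- arrays. After adjustment over all genes tested, no difference of any of these genes passed the threshold.

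RASSF9 is a protein with a Ras-association domain that is made in epidermal keratinocytes. Expression was measured on Affymetrix Mouse Genome 430 2.0 arrays in primary epidermal keratinocytes of neonatal ICR mice, from 2 RASSF9-/- mice and 1 WT mouse, with 1 culture plate and 1 array for each. The RASSF9-/- mice were homozygous for an Epstein-Barr virus LMP1 transgene whose insertion removed part of an intron of Rassf9, and WT mice carried neither the transgene nor the deletion. All RASSF9-/- mice came from a single transgenic line. LMP1 is known as a viral membrane protein that can signal to AP-1 and NF-kB, and its transcript was not analysed here. The paper detected no LMP1 transcript in neonatal skin of the transgenic mice by RT-PCR, and no LMP1 protein in skin by Western blot. All cells were grown in serum-free keratinocyte medium with supplement. The labels give 48 h of culture for both RASSF9-/- samples and 24 h for WT, while the methods give the same time for each sample, so genotype and culture time cannot be told apart if the labels hold. The array names of RASSF9-/- array 1 and of WT carry the same number that reads as a date. The name of RASSF9-/- array 2 carries another. What this number stands for is not stated. The difference of array 1 from WT is also the value between arrays that share the number. With 1 WT array the spread among WT mice is unknown, and the p-values below take it to be that of the RASSF9-/- pair.

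AP-1 is a pair of basic leucine zipper proteins, made of a Jun protein with a Fos protein, another Jun protein or an ATF protein, that binds a short palindromic DNA site. Different pairs activate or hold back different genes, and in epidermis they are known to act both in proliferation and in the stepwise differentiation of keratinocytes. EGR1 is a zinc finger factor and MYC a helix-loop-helix leucine zipper factor. Most of these genes are classic targets of growth factor signalling through ERK and other MAP kinases, many of them with short-lived mRNA.

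Several of these genes are known to be read by their own products, so their promoters were searched for the sites of the families described here. RefSeq windows of assembly GRCm38.p6, from 250 bases before to 50 bases after each annotated gene start, were matched for 7 of the 10 genes (Fos, Fosb, Fosl2, Jun, Junb, Jund and Atf3). The searched sites, on both strands, were the AP-1 site TGACTCA or TGAGTCA, the CRE TGACGTCA, the variant AP-1 site TGACATCA, the CArG box bound by SRF, the E-box CACGTG bound by MYC, and the EGR site GCGGGGGCG or GCGTGGGCG. No one of these letter runs contains another. The variant AP-1 site was added with the Jun window known. Of all 32851 windows, 5.2% held the AP-1 site, 1.79% the CRE, 3.62% the variant AP-1 site, 1.63% the CArG box, 7.15% the E-box and 3.47% the EGR site. The Jun window held the variant AP-1 site at positions -45 to -38 from the start. The Fosl2 and Fosb windows each held an EGR site, at -79 to -71 and at -50 to -42. The windows of Fos, Junb, Jund and Atf3 held none of these letters. Sites outside the windows and near matches of these letters were not searched, so an empty window does not mean that the gene lacks a site. The Jun and Fosl2 windows are shown because both genes had lower signals on both RASSF9-/- arrays and are the only such genes with a window that held a match. They run 5′ to 3′ along the gene's strand, the last 50 bases are the first of the transcript, and the capitals mark the variant AP-1 site in Jun and the EGR site in Fosl2.
Jun (chr4:95052173-95052472, minus strand): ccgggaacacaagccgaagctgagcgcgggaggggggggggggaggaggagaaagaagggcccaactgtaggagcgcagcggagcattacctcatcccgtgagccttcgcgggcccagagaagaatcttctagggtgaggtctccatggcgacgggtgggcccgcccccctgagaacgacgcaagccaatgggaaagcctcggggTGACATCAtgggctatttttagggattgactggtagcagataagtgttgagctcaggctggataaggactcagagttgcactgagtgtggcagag
Fosl2 (chr5:32136222-32136521, plus strand): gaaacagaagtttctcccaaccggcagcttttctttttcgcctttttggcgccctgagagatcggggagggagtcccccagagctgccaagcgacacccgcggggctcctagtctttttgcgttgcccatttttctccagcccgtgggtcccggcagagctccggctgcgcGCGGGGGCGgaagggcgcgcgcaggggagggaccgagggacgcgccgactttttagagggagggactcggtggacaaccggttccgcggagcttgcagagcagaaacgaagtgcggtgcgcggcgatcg
A match is a run of letters and was not tested for binding.

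The deposited value of a probe set is a MAS5 signal, a brightness on a linear scale that the authors brought to the same trimmed mean of 500.0 on each array. The median signal was 99.0 and 81.7 on the RASSF9-/- arrays and 90.8 on the WT array. The background limit was set at 78.4, the brightest of 27 control probe sets for Bacillus subtilis genes, and 44.2% and 49.1% of probe sets on the RASSF9-/- arrays and 46.8% on the WT array were under it. The 3′ to 5′ signal ratio of Gapdh was 0.939 and 0.832 on the RASSF9-/- arrays and 0.841 on the WT array. Both Rassf9 probe sets followed the labels, with 59.6 and 120.2 on the RASSF9-/- arrays against 478.1 on the WT array for 1427942_at, and 68.2 and 76.7 against 340.4 for 1440411_at. All 8 keratinocyte markers were above the background limit on every array, although 5 of them were lower than WT on both RASSF9-/- arrays and 1 was higher on both, with a median log2 difference of -0.28. Krt14, the keratin of basal keratinocytes, had signals of 38752.3 and 38300.2 on the RASSF9-/- arrays and 38140.1 on the WT array. Trp63, which encodes the master factor of stratified epithelium, had 1459.9 and 1542.9 on the RASSF9-/- arrays against 3239.3 on the WT array (adjusted p = 0.689). Summed signals were 108000 and 136000 against 143000 for the keratinocyte markers, 1040 and 811 against 1320 for 6 fibroblast markers, 23700 and 33200 against 27800 for 5 melanocyte markers, 1420 and 2240 against 1360 for 6 leukocyte markers, 194 and 280 against 193 for 3 endothelial markers, and 2930 and 4120 against 1350 for 3 Schwann cell and muscle markers, in each case on the RASSF9-/- arrays against the WT array. The last sum was mostly Acta1, for skeletal muscle actin, with 2484.4 and 3423.7 on the RASSF9-/- arrays against 930.8 on the WT array (adjusted p = 0.389), and without it the sum of the other 2 genes was 445 and 698 against 420.0. All 5 melanocyte markers were above the background limit on every array, while the leukocyte genes Ptprc and Cd207, the endothelial genes Pecam1 and Cdh5 and the muscle gene Myog were under it on all 3. The macrophage genes Csf1r, Cd68 and Adgre1 and the endothelial gene Kdr were above it on all 3. Csf1r, which made most of the leukocyte sum, had 791.8 and 1685.7 on the RASSF9-/- arrays against 784.4 on the WT array. Cd68 had 350.8 and 407.0 against 394.7, and Adgre1 had 115.2 and 83.5 against 113.0. The part of other cell types in the values below was not tested. In these cultures fewer cells of a type and less RNA per cell cannot be told apart.

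Fos encodes the founding Fos protein, which pairs with Jun proteins and is induced within minutes of serum or growth factors. Its probe set 1423100_at had signals of 280.3 and 431.3 on the RASSF9-/- arrays and 562.4 on the WT array. Both RASSF9-/- values were under the WT value, by 2.01-fold on array 1 and 1.3-fold on array 2. The limma mean log2 difference was -0.69 (SE 0.51, 95% interval -1.93 to 0.54, adjusted p = 1.0). The gap between the RASSF9-/- arrays, 0.62 on the log2 scale, was nearly as large as the mean difference.

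Fosl2 encodes FRA2, a Fos protein without the strong activation domain of FOS that is known in differentiating epidermis. The brighter of its probe sets, 1437247_at, had signals of 6422.6 and 6576.0 on the RASSF9-/- arrays and 8224.4 on the WT array. The RASSF9-/- pair was within 0.03 of each other on the log2 scale, and both lay under WT (mean log2 difference -0.34, SE 0.31, 95% interval -1.10 to 0.42, adjusted p = 1.0). The dimmer 1422931_at read 256.9 and 365.9 on the RASSF9-/- arrays and 486.7 on the WT array, log2 differences of -0.92 and -0.41. Both probe sets thus put Fosl2 lower on both RASSF9-/- arrays, with unequal sizes.

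Fosl1 encodes FRA1, a Fos protein whose gene is itself a target of AP-1 and is known to be induced in migrating and wounded keratinocytes. It was the member with the widest gap between the RASSF9-/- arrays. Probe set 1417487_at had signals of 347.4 and 2070.7 on the RASSF9-/- arrays and 315.8 on the WT array. Array 1 lay close to WT, at a log2 difference of 0.14, and array 2 stood apart, at 2.71. The RASSF9-/- arrays differed 5.96-fold from each other, or 2.58 on the log2 scale, and 0.965% of all genes tested had a gap of at least that size. The mean of 1.43 carried a wide interval (SE 0.98, 95% interval -0.95 to 3.80, adjusted p = 1.0). The second probe set, 1417488_at, read 24.8 and 302.1 on the RASSF9-/- arrays and 125.0 on the WT array, with array 1 under the background limit. There WT lay between the RASSF9-/- arrays, at least 1.59-fold above array 1. The mean log2 difference of this probe set was -0.53 as deposited and 0.30 with array 1 raised to the background limit, so it gave no settled direction. Both probe sets had array 2 highest. On array 1, whose name carries the same number as that of WT, 1417487_at was close to WT and 1417488_at was under it.

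Fosb, which encodes a further Fos protein and a truncated splice form best known from neurons, had signals of 63.8 and 43.0 on the RASSF9-/- arrays and 43.1 on the WT array. All 3 values were under the background limit, so Fosb had no measured level in either group and was not tested.

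**Figure D1:**
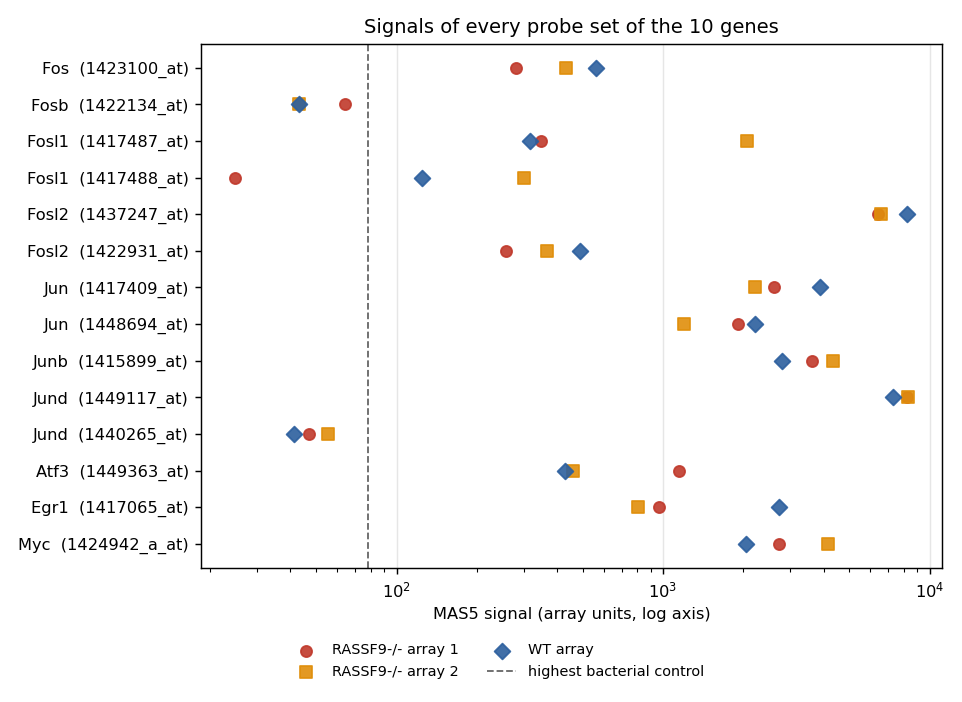
MAS5 signal (array units, log axis) of every probe set of the 10 genes on RASSF9-/- array 1 (circles), RASSF9-/- array 2 (squares) and the WT array (diamonds), with the background limit of 78.4 as a dashed line. Egr1 has both RASSF9-/- arrays well left of WT at 964.1 and 803.4 against 2726.4, Fosl1 has only array 2 far right of WT, and Fosb and the second Jund probe set lie wholly under the limit.

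Jun encodes c-Jun, the partner of FOS which in human cells is known to activate its own promoter through a variant AP-1 site of the letters printed above. Probe set 1417409_at had signals of 2617.7 and 2214.9 on the RASSF9-/- arrays and 3875.4 on the WT array. Both RASSF9-/- values lay under WT, 1.48-fold and 1.75-fold lower, and closer to each other than to WT. The log2 differences of -0.57 and -0.81 gave a mean of -0.69 (SE 0.35, 95% interval -1.52 to 0.15, unadjusted p = 0.0914, adjusted p = 0.988). The second probe set, 1448694_at, read 1908.6 and 1202.9 on the RASSF9-/- arrays and 2209.4 on the WT array, again lower on both, with array 1 nearer to WT (log2 differences -0.21 and -0.88).

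Junb, which encodes a Jun protein known to restrain c-Jun and cell proliferation and to limit inflammation in skin, differed from WT in the other direction. Its signals were 3634.5 and 4346.5 on the RASSF9-/- arrays and 2805.8 on the WT array. Both RASSF9-/- values were above WT, 1.3-fold and 1.55-fold (mean log2 difference 0.50, SE 0.34, 95% interval -0.32 to 1.32, adjusted p = 1.0).

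Jund, which encodes the Jun protein that resting cells make most steadily, was the closest to WT of the 9 genes tested. Probe set 1449117_at had signals of 8198.5 and 8328.6 on the RASSF9-/- arrays and 7319.1 on the WT array. The RASSF9-/- arrays lay 0.02 apart on the log2 scale and 1.12-fold and 1.14-fold above WT (mean log2 difference 0.18, SE 0.31, 95% interval -0.58 to 0.93, adjusted p = 1.0). This interval leaves room for a difference of nearly 2-fold upwards. The second probe set, 1440265_at, read 47.1 and 55.3 on the RASSF9-/- arrays and 41.2 on the WT array, all under the background limit.

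Atf3 encodes a stress-induced factor of the ATF family that dimerizes with Jun proteins and often represses. Its signals were 1146.3 and 458.4 on the RASSF9-/- arrays and 429.7 on the WT array. Here array 1 stood apart, 2.67-fold above WT, and array 2 was 1.07-fold above it. The RASSF9-/- arrays differed 2.5-fold from each other, a gap of 1.32 on the log2 scale that 7.31% of all genes reached. The mean log2 difference was 0.75 (SE 0.62, 95% interval -0.75 to 2.26, adjusted p = 1.0). Atf3 and Fosl1 were the 2 members whose gap between the RASSF9-/- arrays was larger than their mean difference from WT, and opposite arrays were high in them: array 1 for Atf3 and array 2 for Fosl1.

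Egr1 encodes a zinc finger factor that ERK signalling induces through SRF and its ELK partners. Its only probe set, 1417065_at, had signals of 964.1 and 803.4 on the RASSF9-/- arrays and 2726.4 on the WT array. Both RASSF9-/- values were far under WT and only 1.2-fold apart. The log2 differences were -1.50 on array 1, whose name carries the same number as that of WT, and -1.76 on array 2. The mean was -1.63 (SE 0.38, 95% interval -2.55 to -0.71), or 3.1-fold lower, with an unadjusted p of 0.00467 and an adjusted p of 0.393. Its own interval does not include 0, but with 11089 genes tested the adjusted p missed 0.05 by far, and it ranged from 0.224 to 0.997 over the other ways of processing the values. Of all genes tested, 180 (1.62%) had a mean log2 difference at least as low as Egr1, and 102 (0.92%) were at least as low as its smaller difference on both arrays. Egr1 was the only member at least 2-fold from WT in 1 direction on both RASSF9-/- arrays. That size and direction was shared by 2.24% of all genes, and 2.89% were at least 2-fold higher on both.

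Myc encodes the growth-promoting factor that pairs with MAX and drives ribosome production and metabolism. Probe set 1424942_a_at had signals of 2730.9 and 4141.3 on the RASSF9-/- arrays and 2039.4 on the WT array. Both RASSF9-/- values were above WT, 1.34-fold on array 1 and 2.03-fold on array 2. The log2 differences were 0.42 and 1.02, with a mean of 0.72 (SE 0.39, 95% interval -0.23 to 1.67, unadjusted p = 0.114, adjusted p = 1.0). The gap of 0.60 between the RASSF9-/- arrays was a little smaller than the mean difference.

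**Figure D2:**
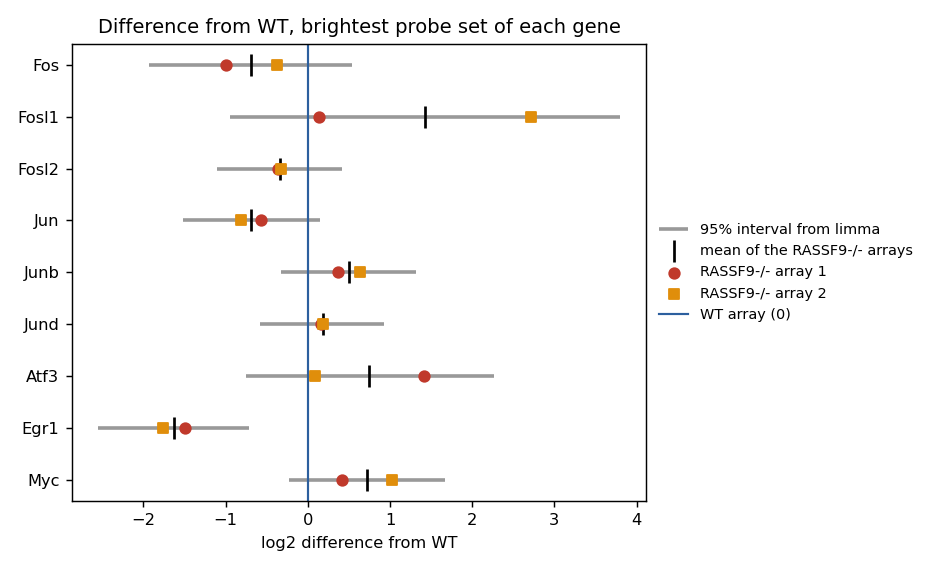
Log2 difference from the WT array (x axis) of RASSF9-/- array 1 (circles) and array 2 (squares) for the brightest probe set of each of the 9 genes tested, with their mean (black tick) and its 95% interval from limma (grey bar). Only the interval of Egr1, -2.55 to -0.71, does not cross 0, and the arrays lie far apart for Fosl1 and Atf3.

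Taking the 9 tested genes together, 4 were lower than WT on both RASSF9-/- arrays (Fos, Fosl2, Jun and Egr1) and 5 were higher on both (Fosl1, Junb, Jund, Atf3 and Myc). Over all 11089 genes tested, 32.7% were lower on both and 33.6% were higher on both. Since both differences are taken from the same WT array, a WT value that is off by chance puts both on 1 side. By probe set, 6 of the 14 were lower on both, 6 were higher on both, and WT lay between the RASSF9-/- arrays for 2. The dimmer Jund probe set is counted among the higher ones and the Fosb probe set among those with WT between. Both lay under the background limit on all 3 arrays, so their sides carry no measured direction. Counts of this kind over all probe sets are not given here for comparison. None of the 9 genes was called by limma at an adjusted p under 0.05, where 0.0812% of all genes (9 genes) were called higher and 0.0% were called lower. At an unadjusted p under 0.05 there was 1 member, Egr1, and 615 of all genes, and the methods' t-test gave 0 members with or without adjustment. The median log2 difference of the 9 genes was 0.18 (0.14 on array 1 and 0.09 on array 2), beside -0.01 for all genes (0.05 and -0.04). The median gap between the RASSF9-/- arrays was 0.38 over all genes, and Fosl1, Atf3, Fos and Myc had wider gaps than that, while Jund, Fosl2, Jun, Junb and Egr1 had narrower ones.

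**Figure D3:**
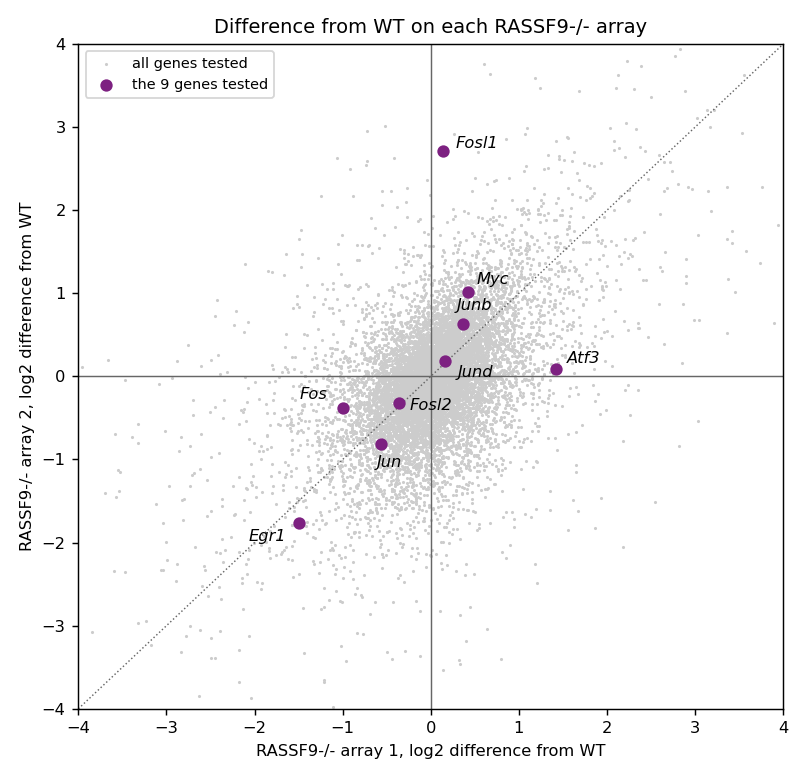
Log2 difference from WT on RASSF9-/- array 1 (x axis) and array 2 (y axis) for all 11089 genes tested (grey) and the 9 genes described here (purple), with the line of equal differences dotted. Egr1 lies near that line far from the origin at -1.50 and -1.76, Fosl1 lies near the vertical axis and Atf3 near the horizontal one, and 47 genes lie beyond the axes, which end at 4 in each direction.

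The other genes of the early response did not share 1 direction. Of 39 further early response genes listed, 34 were tested, with a median log2 difference of -0.04. Of these, 11 (32.4%) were under WT on both RASSF9-/- arrays, 13 (38.2%) were above it on both and 10 had WT between. Of all genes, 32.7% were lower on both and 33.6% higher on both. No gene of this list was called and 4 (11.8%) had an unadjusted p under 0.05, beside 5.55% of all genes. Among the relatives of Egr1, Egr2 and Egr3 also had lower signals on both RASSF9-/- arrays. Egr2, a paralog of Egr1, had signals of 241.2 and 188.3 on the RASSF9-/- arrays and 636.6 on the WT array (log2 difference -1.58, SE 0.51, adjusted p = 0.694). Egr3 had 51.9 and 279.2 against 608.8, with array 1 under the background limit. Taking array 1 at that limit, the RASSF9-/- mean of Egr3 on the log2 scale was at least 4.11-fold under WT. Array 2 alone had a log2 difference of -1.12. The adjusted p of Egr3 from limma, on the values as deposited, was 0.911. Egr4, too dim to pass the filter, had 87.3 and 72.2 on the RASSF9-/- arrays against 46.7 on the WT array and was not tested. Nab2, which encodes a corepressor of EGR proteins and is an EGR target, had 250.6 and 402.7 against 420.9, so array 2 was close to WT and array 1 was under it. On the other side, Gadd45b, a stress and growth arrest gene, had 14898.1 and 12092.2 on the RASSF9-/- arrays and 3868.1 on the WT array (log2 difference 1.79, SE 0.33, adjusted p = 0.323). Ier3, a survival gene of the early response, had 26803.9 and 30021.6 on the RASSF9-/- arrays and 15082.4 on the WT array (log2 difference 0.91, SE 0.30, adjusted p = 0.741). Gadd45b and Ier3 were thus higher on both RASSF9-/- arrays, as 33.6% of all genes were. Gadd45b was at least 2-fold higher on both, as 2.89% of all genes were. Egr1, Egr2 and Egr3 were lower on both, as 32.7% of all genes were. Each of them was at least 2-fold lower on both, as 2.24% of all genes were. From this list, Gadd45b, Ier3, Egr2 and Egr3 were named for the size of their change.

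Signals for the remaining AP-1 family genes (Batf, Maf, ATF and related leucine zipper genes) were mixed. Of 8 tested out of 12 listed, 2 lay under WT on both RASSF9-/- arrays, 2 lay above it on both and 4 had WT between. That is 25.0% on each side, beside 32.7% lower and 33.6% higher on both of all genes. The median log2 difference was -0.02, with 0 called. An unadjusted p under 0.05 was found for 1 gene (12.5%), beside 5.55% of all genes. Maf, a large Maf factor, had 383.1 and 285.9 on the RASSF9-/- arrays and 947.4 on the WT array (log2 difference -1.52, SE 0.47, adjusted p = 0.686). Atf7, a partner of Jun proteins, had 359.0 and 400.3 against 233.8 (log2 difference 0.70), while the small Maf genes Mafg and Mafk had log2 differences of 0.29 and -0.10.

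Upstream of the early response stand the MAP kinases and the factors that bind the promoters of Fos and Egr1. Of 16 tested out of 21 listed, 7 lay under WT on both RASSF9-/- arrays, 4 lay above it on both and 5 had WT between. That is 43.8% lower and 25.0% higher on both, beside 32.7% and 33.6% of all genes. The median log2 difference was -0.11, with 0 called and 0 with an unadjusted p under 0.05. Srf, which encodes the factor that binds the CArG box, had 662.3 and 498.9 on the RASSF9-/- arrays and 1070.8 on the WT array (log2 difference -0.90, SE 0.44, adjusted p = 0.977). Mrtfa, the actin-regulated coactivator of SRF, had 1041.1 and 849.1 against 1468.1 (log2 difference -0.64, adjusted p = 1.0). Both genes thus had lower signals on both RASSF9-/- arrays, as 32.7% of all genes did, without passing the test. Elk3 of the same list was higher on both, with log2 differences of 0.34 and 0.33. A link of these genes to Egr1 or Fos was not tested. Mapk7 and Map2k4, kinases of the MAP kinase cascades, had log2 differences of 0.72 and -0.41.

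Known targets lay mostly above WT. Of 25 genes for ribosome biogenesis and other known MYC targets, all tested, 21 were higher on both RASSF9-/- arrays, 1 was lower on both (Ldha, for lactate dehydrogenase, log2 difference -0.40) and 3 had WT between. That is 84.0% higher on both, beside 33.6% of all genes. The median log2 difference was 0.99 (0.79 on array 1 and 1.14 on array 2), beside -0.01 for all genes. No gene of the list was called, and 15 (60.0%) had an unadjusted p under 0.05, beside 5.55% of all genes. The list was chosen with earlier results of these data known, and all its differences are taken from the same WT array. These shares are therefore a description and not a test. Odc1, which encodes the first enzyme of polyamine synthesis, had 3514.9 and 7865.8 on the RASSF9-/- arrays and 1283.4 on the WT array (log2 difference 2.03, SE 0.52, adjusted p = 0.488). Polr1b, a subunit of RNA polymerase I, had 553.6 and 971.4 against 228.6 (log2 difference 1.68, SE 0.52, adjusted p = 0.686). Nop56 and Nolc1, nucleolar proteins, had log2 differences of 1.59 and 1.31. In 5 genes of the list the signal was at least 2-fold higher on both arrays. These genes also respond to other growth signals, and the part of Myc in their signals was not tested.

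The partners and antagonists of MYC were mixed. Of 12 genes of the MYC network, all tested, 4 lay under WT on both RASSF9-/- arrays, 2 lay above it on both and 6 had WT between. That is 33.3% lower and 16.7% higher on both, beside 32.7% and 33.6% of all genes. The median log2 difference was -0.08, with 0 called and 0 with an unadjusted p under 0.05. The 4 lower ones were Mxd4 and Mxi1, which encode MAX partners that oppose MYC (log2 differences -1.18 and -0.66), Fbxw7, whose ubiquitin ligase degrades MYC (-0.47), and Mycl, a MYC paralog. Mycl had 215.4 on RASSF9-/- array 1 (log2 difference -0.44), a value under the background limit on array 2 and 293.1 on the WT array. With array 2 taken at that limit, its RASSF9-/- mean on the log2 scale was at least 2.26-fold under WT.

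Of 24 AP-1 targets known in keratinocytes and skin, 19 were tested. Of these, 12 were higher on both RASSF9-/- arrays, 1 was lower on both and 6 had WT between. That is 63.2% higher and 5.26% lower on both, beside 33.6% and 32.7% of all genes. The median log2 difference was 0.73 (0.90 and 1.16 on the single arrays), with 0 called. An unadjusted p under 0.05 was found for 6 (31.6%), beside 5.55% of all genes. This list too was chosen with earlier results of these data known, so its shares are a description and not a test. Ccnd1, which encodes cyclin D1 of the G1 phase, had 5353.8 and 6088.1 on the RASSF9-/- arrays and 1614.5 on the WT array (log2 difference 1.82, SE 0.33, adjusted p = 0.323). Ivl, which encodes involucrin of the cornified envelope, was the 1 lower gene among those tested, with 1791.4 and 1821.5 against 5061.7 (log2 difference -1.49, SE 0.34, adjusted p = 0.372). In both of these genes the RASSF9-/- arrays were close to each other and well clear of WT. Krt1, the keratin of the first suprabasal layer, was on the list but not tested, because its mean over the arrays was under the filter. It had 5.7 and 29.6 on the RASSF9-/- arrays, both under the background limit, against 440.1 on the WT array, at least 5.61-fold lower on each. The count of lower genes thus leaves out a gene that was dim in RASSF9-/-. Il6, also not tested, went the other way, with 79.0 and 60.2 on the RASSF9-/- arrays against 3.0 on the WT array. Its RASSF9-/- values were close to the background limit. The cytokine genes Ccl2 and Csf2 had 5056.6 and 1436.9 against 473.3 and 7746.9 and 1495.2 against 580.8, higher on both arrays but far more so on array 1 (log2 differences 2.51 and 2.55, adjusted p = 0.576 and 0.77).

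Several AP-1 targets had a wide gap between the RASSF9-/- arrays, as Atf3 and Fosl1 did; the following were chosen after their values were seen. With Atf3, array 1 was the high one for the matrix metalloproteinase genes Mmp9 (23189.4 and 4508.2 on the RASSF9-/- arrays against 2806.6 on the WT array), Mmp10 (1744.4 and 266.4 against 557.3) and Mmp13 (6017.6 and 701.8 against 1963.2). With Fosl1, array 2 was the high one for the cornified envelope genes Sprr1b (3238.0 and 27961.2 against 11644.8), Tgm1 (205.9 and 1818.1 against 580.2) and Lor (328.3 and 2129.5 against 796.2). For Mmp10, Mmp13, Sprr1b, Tgm1 and Lor the WT value lay between the RASSF9-/- arrays. Not every gene of these kinds had such a gap. Mmp3 had 556.5 and 479.0 on the RASSF9-/- arrays against 199.0 on the WT array. The cornified envelope gene Ivl had 1791.4 and 1821.5 against 5061.7. With 1 array of each kind, mouse, plate and whatever the number in the array names stands for cannot be told apart as sources of these gaps.

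**Figure D4:**
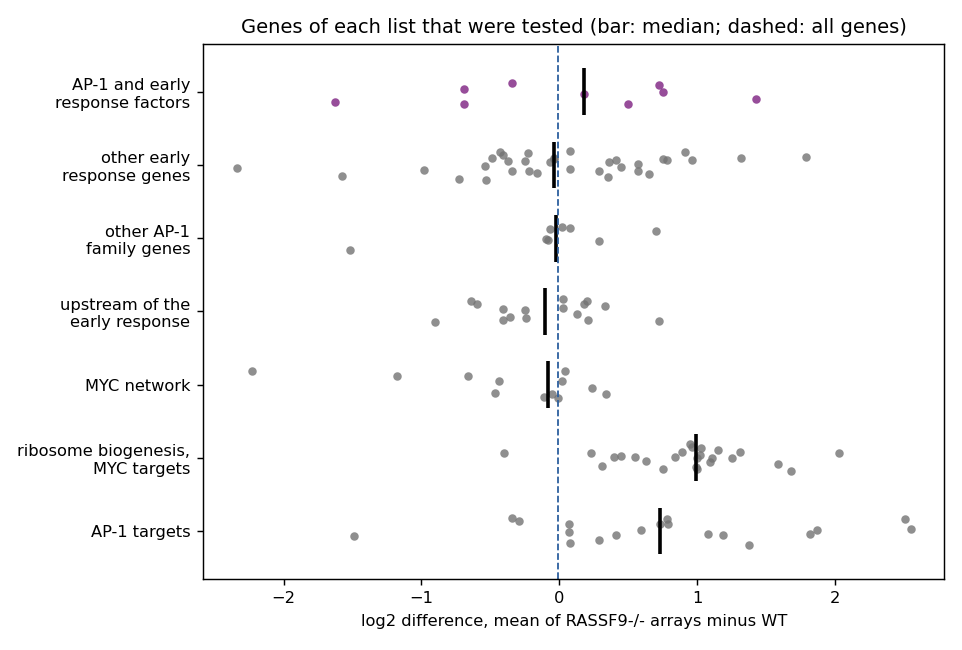
Log2 difference (mean of the RASSF9-/- arrays minus WT, x axis) of each tested gene in the 10 genes described here (purple) and in 6 other lists (grey), with each list's median as a black bar and the median of all genes as a dashed line. The medians of the ribosome biogenesis and MYC target list (0.99) and the AP-1 target list (0.73) lie right of the other medians, and Egr3 and Mycl, far left, each include 1 array under the background limit.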

How the data were processed

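Gene expression was measured on 1 array per mouse in keratinocytes of 2 RASSF9-/- mice and 1 WT mouse. The authors deposited MAS5 signals (version not given in the sources used here), a linear intensity per probe set scaled to a common trimmed mean, which was checked on the values with 2% removed at each end. Log2 signals were used without further scaling or pseudocount. Of 45037 probe sets that are not controls, 34945 had 1 symbol in the platform annotation. Probe sets with a mean log2 signal under the 50th percentile (a signal of 82.7) were dropped, and each of the 11089 genes that remained was represented by its brightest probe set. The test of RASSF9-/- minus WT was limma's moderated linear model (version 3.58.1, R 4.3.3; lmFit, then eBayes with an intensity trend), two-sided. Its p-values were adjusted over all genes by Benjamini-Hochberg, with 0.05 as the limit for a call. The model had 1 residual and 5.31 prior degrees of freedom, and the number in the array names could not be a term. The script was tested on simulated data. Values were recomputed with median and quantile scaling, other filters, a pseudocount, other choices of probe set, no trend, the methods' t-test, a floor at the bacterial controls, other fold thresholds and each RASSF9-/- array left out. Precision was limited by having so few arrays, which carry no read depth.

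All 10 genes were named with every probe set. From the other lists (AP-1 family, early response, MYC network, MYC targets and ribosome biogenesis, AP-1 targets, upstream factors) the rule named each called gene and up to 4 with the largest smaller change in 1 direction on both RASSF9-/- arrays, and other genes named are described as such or as relatives of Egr1. Maff and Hbegf stand in 2 lists each. The members and lists were chosen with earlier results of these data known.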

Additional observations from a re-analysis of the deposited data

How the results depend on the processing

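Of the values of single members under the other settings, 118 kept their direction and 1 reversed. Part of this was fixed in advance, since other filters and other tests reuse the same log2 value. With 1 RASSF9-/- array left out there was no test. The direction was fixed there too, because both arrays lay on the same side of WT for each tested member. The reversed value was that of the second Fosl1 probe set, 1417488_at, tested on its own, with a log2 difference of -0.53. That value rests on a signal under the background limit on RASSF9-/- array 1, and with it raised to the limit, an alternative chosen after seeing the data, the difference was 0.30. No member was called under any setting. Of the 9 tested genes, 1 (Egr1) was at least 2-fold from WT on both RASSF9-/- arrays. At a fold threshold of 3 there were 0. With either RASSF9-/- array left out the count was 3 to 3, over 1 array against 1 and with no test. The 9 calls over all genes became 0 with quantile normalization, 5 with the filter at the 75th percentile, 5 with a pseudocount of 32, 0 without the intensity trend, 4 with the methods' t-test after Benjamini-Hochberg adjustment (493 unadjusted, 258 higher and 235 lower) and 0 with values under the bacterial controls raised to them. The cause of these shifts was not tested. The median of all genes stayed between -0.03 and 0.01 on the log2 scale under every setting that was tested.

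With 2 arrays against 1, a single residual degree of freedom and a WT mouse without a replicate, the intervals of the 9 genes were wide, and a member that missed the threshold was not shown to be equal between RASSF9-/- and WT. Signals under 78.4, such as those of Fosb, carry no measured level. No paired analysis was possible because there was 1 WT mouse and the labels give no pairing of mice.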
